A study of Mus musculus with 2 samples.

Results

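The proteasome genes were examined on 2 mouse expression arrays, 1 of control cells and 1 of cells carrying human DKK1. The members were the genes whose symbol is Psma, Psmb, Psmc, Psmd, Psme, Psmf or Psmg followed by a number, taken from probe sets annotated with exactly 1 symbol. Psmb8 and Psmb9, the inducible subunits of antigen presentation, were left out by that rule. This gave 45 genes of the 18193 with such a probe set, represented by 97 probe sets. Psme2 is not analysed here, because its probe set also carries the symbol of its close copy Psme2b.

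Both arrays hold total RNA of MOS-J, an established mouse osteosarcoma line. The control cells carried a control lentivirus and the DKK1 cells a lentivirus with human DKK1, a secreted inhibitor of canonical Wnt signalling that binds the LRP co-receptors. The protocols in the labels describe drug-selected clones or stable lines by a viral and by a plasmid route. The sample labels name a lentivirus for both arrays, and whether the plasmid route had a part in these cells is not stated. With 1 array per group there is no replicate, so no test was made and no p-value is given, and each difference compares these 2 arrays alone.

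The proteasome degrades proteins tagged with ubiquitin. Its core particle is a barrel of stacked alpha and beta rings, with the protein-cutting sites on the inner faces of 3 beta subunits. The regulatory particle caps the barrel, recognises and removes ubiquitin, and unfolds the substrate with a ring of ATPases. Dedicated chaperones help both particles to assemble. Cells that lack proteasome activity are known to raise the transcription of subunit genes through the factor NFE2L1, and related elements in promoters also bind NFE2L2. Interferon induces a second set of catalytic subunits that replace the constitutive ones in newly made barrels. Tumour cells with a high load of protein synthesis are known to depend on this machine.

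Each array held 45101 probe sets, with a median signal of 62.6 (control) and 78.6 (DKK1) and, after trimming 2% at each end, a mean of 500 on both. A probe set was taken as measured where its mean signal over the arrays reached 71.3, the median of such means. A difference is log2(signal + 16.6) on the DKK1 array minus the same on the control array, averaged where a gene has several measured probe sets. A gene was called where the difference was 1 or more in size (2-fold) and no measured probe set of the gene had the opposite sign. Of the bone tumour cell markers, 5 of 5 genes on the array were measured. None was called and all 5 had a difference above 0, with a median of 0.36, from 0.05 for Col1a2 to 0.94 for Sparc. The signal of Sparc averaged over 3 probe sets was 3539 in control and 7054 in DKK1 cells. Alpl, at 147 and 182, and Sp7, at 87.0 and 117, were dim, and Spp1 of the same list had no probe set with exactly 1 symbol. The summed signal of the leukocyte and macrophage markers was 1143 in control and 1448 in DKK1 cells over 16 probe sets, with 5 of 9 genes measured and Ptprc, Adgre1, Cd3e and Itgam below the filter. Of the 5 measured, Lyz2 was called higher, from 14.5 to 136, Laptm5 was called lower, from 114 to 44.2, and Cd68, Cd14 and Csf1r lay between 0.45 and 0.48. Endothelial and epithelial markers summed to 588 and 810 over 12 probe sets, with 3 of 8 genes measured. The part of other cells in the results was not tested.

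Sequence upstream of the members was read to show what these genes share outside the arrays. The RefSeq promoter table of build GRCm38.p6 held a window for 37 of the 45 members, and the 250 bases before the annotated start were searched on both strands. The core of the antioxidant response element bound by NFE2L1 and NFE2L2, TGACNNNGC, was found for 5 members, Psmb5, Psmb6, Psmc6, Psmd9 and Psmd12. Of the members' windows, 12.8% held it, against 10.2% of all 32851 windows of that length. The 5 matches are shown because Psmb5 had the largest difference of all members. Capitals mark the match, and each stretch is written on the strand of the gene with up to 10 bases on either side.
Psmb5 (chr14:54618024-54618052, minus strand): cgtgaagttgTGACGTCGCggcgttgcca
Psmb6 (chr11:70525338-70525366, plus strand): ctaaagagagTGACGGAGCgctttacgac
Psmc6 (chr14:45329587-45329615, plus strand): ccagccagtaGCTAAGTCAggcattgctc
Psmd9 (chr5:123228149-123228177, plus strand): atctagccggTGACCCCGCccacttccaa
Psmd12 (chr11:107479278-107479299, plus strand): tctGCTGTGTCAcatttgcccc

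In Psmb5 the match began 47 bases before the annotated start, in Psmd9 31 and in Psmb6 9, while in Psmc6 and Psmd12 it lay 227 and 247 bases before it, on the opposite strand. The CCAAT box, CCAAT on either strand, was found for 13 members, in 33.3% of their windows against 33.8% of all. The core of the interferon-stimulated element, GAAA and GAAA with 2 free bases between them, was found for Psmb3, Psmd4 and Psmd9, in 7.69% of the windows against 2.98% of all. A match describes letters and is not a site shown to be bound. The full windows of Psmb5 and Psme3 follow, because these members had the largest differences. Capitals mark the antioxidant element core in Psmb5 and a CCAAT box on the opposite strand, 14 bases before the start, in Psme3.
Psmb5 (chr14:54617996-54618245, minus strand): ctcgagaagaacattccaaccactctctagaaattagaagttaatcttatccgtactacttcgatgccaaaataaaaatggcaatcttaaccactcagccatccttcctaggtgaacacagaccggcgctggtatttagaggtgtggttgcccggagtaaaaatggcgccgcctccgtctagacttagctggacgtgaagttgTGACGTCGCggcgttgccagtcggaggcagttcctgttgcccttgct
Psme3 (chr11:101315963-101316212, plus strand): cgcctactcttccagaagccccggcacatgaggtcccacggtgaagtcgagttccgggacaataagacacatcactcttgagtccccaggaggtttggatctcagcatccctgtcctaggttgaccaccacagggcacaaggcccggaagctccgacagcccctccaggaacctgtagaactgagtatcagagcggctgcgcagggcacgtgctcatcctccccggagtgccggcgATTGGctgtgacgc

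As deposited, most proteasome genes lay below control levels on the DKK1 array by a modest amount. This was shared by the core particle, the regulatory particle and the chaperones of the core particle. Of the chaperones of the ATPase ring 1 of 3 lay below 0, and of the alternative caps and the inhibitor 2 of 4. Of the 45 members 43 were measured, and 35 of these had a difference below 0, or 81.4%, where 44.1% of the 11058 measured genes did. Brightness bears on this share, as 54 of the members' 78 measured probe sets had a mean signal of 1000 or more. Among all probe sets that bright, 54.6% lay below 0, against 50 of those 54. The median of the members was −0.41, with a range of −1.93 to 0.97, against 0.10 for all measured genes. Few members reached 2-fold. Psmb5, Psme3, Psmg1, Psmd14 and Psmd5 were called lower, 5 of 43, where 6.91% of all measured genes were called lower, and 0 members were called higher, where 11.7% of all were. Just outside the threshold were Psmd11 at −0.96, Psmb3 at −0.92 and, in the other direction, Psmb10 at 0.97, and just inside it were Psmd5 at −1.04 and Psmd14 at −1.07. In bulk RNA fewer cells expressing a gene and less RNA per cell cannot be told apart.

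**Figure D1:**
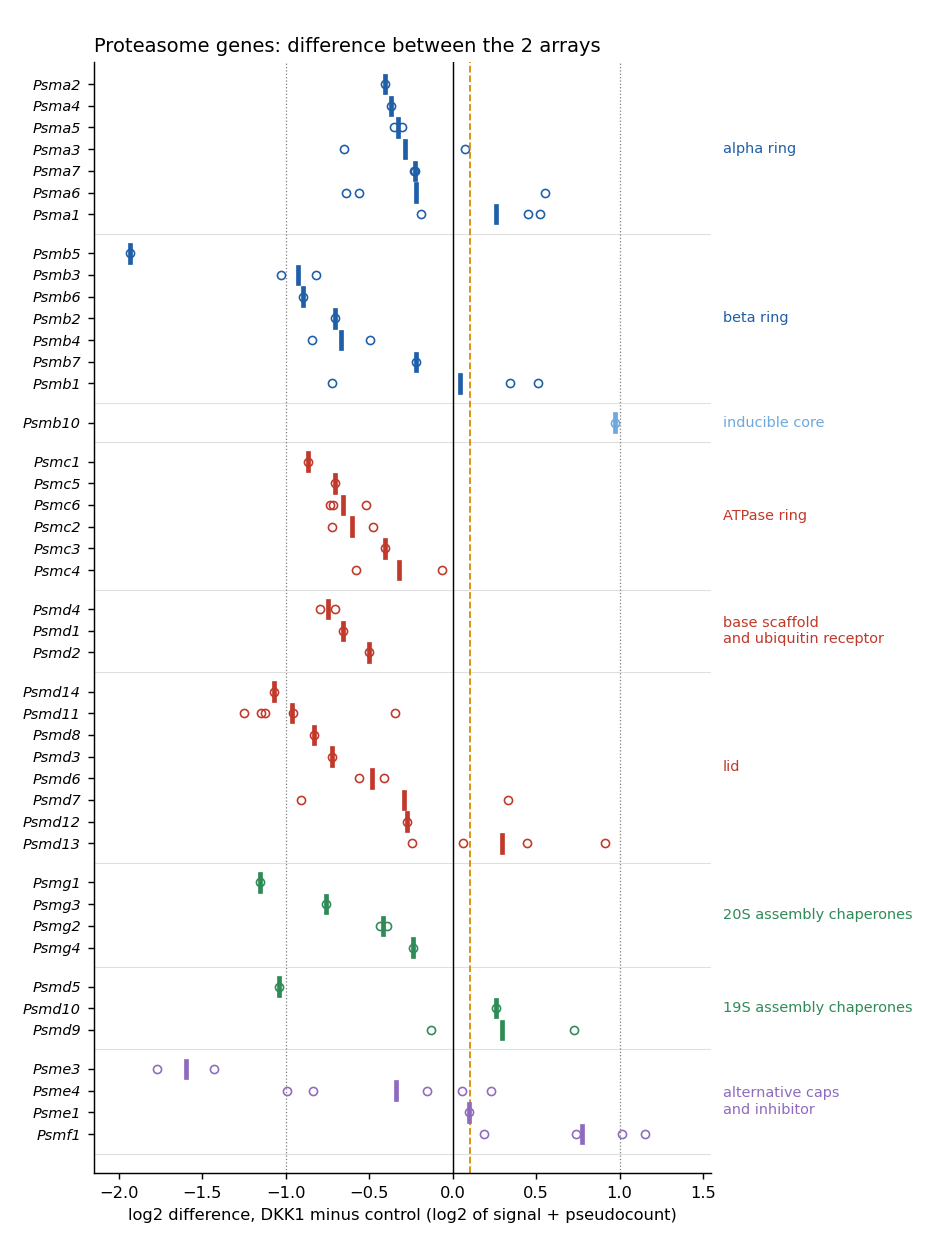
Each row is 1 measured proteasome gene, grouped by its place in the complex, and the x axis is the log2 difference, DKK1 minus control. Circles are measured probe sets and bars the gene's mean; the dashed line is the median of all measured genes (0.10) and the dotted lines mark 2-fold. Of 43 genes, 35 lie below 0, with Psmb5 lowest at −1.93 and Psmb10 highest at 0.97.

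How far the members lay from control depended on how the arrays were set against each other. Their median lay below that of all genes in every setting, by an amount that varied. The 18 hybridisation controls, added after labelling, had a median log2 ratio of −0.37, and the 20 measured poly-A controls, which go through labelling, one of 0.64. Setting the first equal left the members' median at −0.04 with 24 below 0 and 2 called lower against 3 higher, and moved the median of all genes to 0.47. Setting the second equal gave −1.05 with 41 below 0 and 25 called lower against 0 higher, and −0.53 for all genes. Of all measured genes, 24.7% lay below 0 with the first set equal, where 3.48% were called lower and 22.005% higher. With the second set equal 77.98% lay below 0, where 24.3% were called lower and 4.13% higher. Relative to the median of all genes, the members' median was −0.52 as deposited and −0.71 to −0.37 over 12 other settings. Between 36 and 39 of the members lay below the median of all genes in each of these settings. The members' relative median was nearest to that of all genes after quantile normalization and after loess, at −0.37 in both. Whether the RNA of these genes was lower in absolute terms is not settled by these arrays.

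The catalytic beta ring held the largest difference among the core subunits. Psmb5, which carries the chymotrypsin-like site and is the main target of the drug bortezomib, gave a signal of 11632 in control cells and 3040 in DKK1 cells. Its difference was −1.93, a 3.81-fold lower value from 1 probe set. It was called lower under all 12 other settings, at −2.57 to −1.56. With 1 bright probe set, its value could not change without the filter, with the stricter one or by the choice of probe sets. Psmb6, which carries the caspase-like site, had 9361 and 5021, a difference of −0.90, and was called lower after median scaling (−1.02) and when the poly-A controls were set equal (−1.53). Psmb7, which carries the trypsin-like site, had 1030 and 883, a difference of −0.22. The control signals of all 3 catalytic genes were above their DKK1 signals, and as deposited only the gap of Psmb5 was past 2-fold.

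Of the 4 structural beta subunits 3 lay between these values. Psmb3 had signals of 13710 and 17121 on the control array for its 2 probe sets, against 6709 and 9690 on the DKK1 array. Its difference of −0.92 was followed by those of Psmb2 at −0.70 and Psmb4 at −0.67, and after median scaling Psmb3 was called lower at −1.05. Psmb1 had a mean difference of 0.05 over probe sets of both signs. Its bright probe set went from 12249 to 7418, a difference of −0.72, while 2 dim ones went from 191 to 279 and from 200 to 259. Of the 7 beta ring genes 6 lay below 0, with a median of −0.70.

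The alpha ring, which forms the outer gate of the barrel, had smaller differences. Of its 7 genes 6 lay below 0, with a median of −0.29 and 0 called. Psma2 was the lowest, with 10689 in control cells against 8073 with DKK1, a difference of −0.40. Psma4 (−0.37), Psma5 (−0.33), Psma3 (−0.29), Psma7 (−0.23) and Psma6 (−0.22) followed, and Psma1 was the highest at 0.26. Among members with several probe sets Psma7 had the closest agreement, at 5895 and 8217 in control against 5047 and 7009 in DKK1 cells. Psma1, Psma3 and Psma6 each had probe sets of both signs. The brightest probe set of Psma1 went from 6222 to 5462, of Psma3 from 17828 to 11377 and of Psma6 from 15121 to 9712. Their dimmer probe sets had differences of 0.45 and 0.52 for Psma1, 0.07 for Psma3 and 0.55 for the dimmest of Psma6. The gap between the medians of the 2 rings has no replicate check.

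The 3 inducible catalytic subunits had differences above 0 as deposited, and the 3 constitutive ones they replace had differences below it. These sides turn with the scaling for Psmb8, at −0.04 with the poly-A controls set equal, and for Psmb7, at 0.15 with the hybridisation controls set equal. Psmb10, which replaces Psmb7 when interferon is present, had 1279 in control cells against 2521 with DKK1, a difference of 0.97 from 1 probe set, just short of the call. It passed 2-fold when the hybridisation controls were set equal (1.34) and, barely, after loess, and was at 0.33 when the poly-A controls were. Psmb9, which replaces Psmb6, had 1306 and 2100, a difference of 0.68, and Psmb8, which replaces Psmb5, had 0.58 over 2 probe sets (SD 0.23), neither of them called as deposited. Psmb9 was called higher when the hybridisation controls were set equal (1.05), and was at 0.04 when the poly-A controls were. The inducible subunit minus the constitutive one was 2.51 at the beta5 position, 1.57 at beta1 and 1.19 at beta2. These gaps do not depend on a common scaling factor. Over 12 other settings they ran from 2.32 to 2.54, from 1.44 to 1.58 and from 1.15 to 1.25. At beta1 and beta2 each gene had 1 probe set. Leaving out the filter, the stricter filter and the choice of probe sets could therefore not move the gaps there. Psma8, a testis form of an alpha subunit, and Psmb11, the catalytic subunit of the thymus, were below the filter on these arrays.

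**Figure D2:**
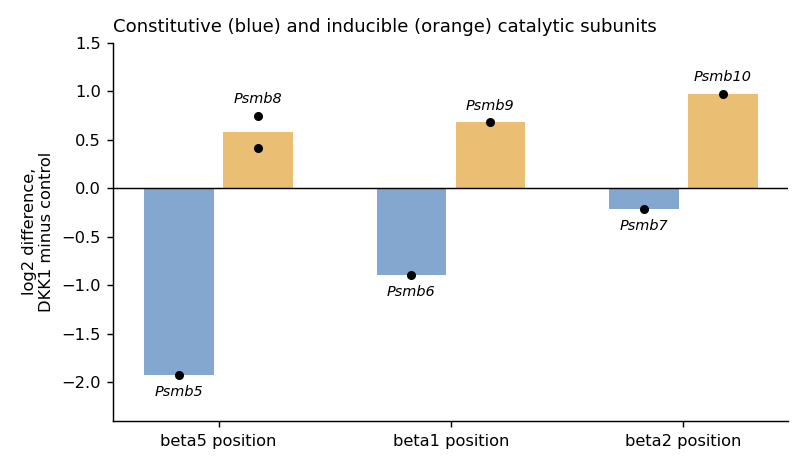
Bars are the log2 difference, DKK1 minus control, of each constitutive catalytic subunit (blue) and of the inducible subunit that replaces it (orange), at the 3 catalytic positions, and points are the measured probe sets. As deposited, Psmb5, Psmb6 and Psmb7 lie below 0 at −1.93, −0.90 and −0.22, and Psmb8, Psmb9 and Psmb10 above it at 0.58, 0.68 and 0.97; Psmb7 is above 0 with hybridisation control scaling and Psmb8 below it with poly-A control scaling.

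The regulatory particle was the most even of the 3 main groups, where the core particle had an SD over genes of 0.53 and the assembly chaperones one of 0.58. Of its 17 measured genes 16 lay below 0, with a median of −0.66, an SD over genes of 0.32 and 1 called lower. Within the core particle the SD was 0.22 for the alpha ring and 0.63 for the beta ring, which holds Psmb5 at −1.93. All 6 genes of the ATPase ring, which unfolds substrates and feeds them into the barrel, lay below 0, from −0.86 for Psmc1 to −0.32 for Psmc4. Psmc1 had 3671 in control and 2008 in DKK1 cells. Psmc4 had 10123 and 2752 on the control array for its 2 probe sets and 6783 and 2628 on the DKK1 array. Psmc6 was measured by 3 probe sets, all below 0, with a mean of −0.66 (SD 0.12). Psmc5 at −0.70, Psmc2 at −0.60 (SD 0.18, 2 probe sets) and Psmc3 at −0.40 completed the ring, and none of the 6 reached 2-fold as deposited.

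The base scaffold and the ubiquitin receptor lay in the same range. Psmd4, a receptor that binds ubiquitin chains, had 5808 and 3849 in control against 3348 and 2359 in DKK1 cells for its 2 measured probe sets, a difference of −0.75 (SD 0.06). Psmd1 had −0.66, and Psmd2, the other large scaffold subunit, had 4446 and 3140, a difference of −0.50. The 3 genes had a median of −0.66, and none was called.

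The lid, which removes ubiquitin from substrates, held the 1 called gene of the regulatory particle. Psmd14, the deubiquitinase of the lid, had 10900 in control cells against 5192 with DKK1, a difference of −1.07 from 1 probe set. Its call ended after quantile normalization, after loess and when the hybridisation controls were set equal. Psmd11, a scaffold subunit of the lid, was measured by 5 probe sets, all below 0, with the brightest going from 8345 to 3758. Its mean of −0.96 (SD 0.36) fell short of the threshold, and it was called lower with the stricter filter (−1.12), by its brightest probe set alone (−1.15), after median scaling (−1.09) and when the poly-A controls were set equal (−1.57). Psmd8 (−0.83), Psmd3 (−0.72), Psmd6 (−0.48), Psmd7 (−0.29) and Psmd12 (−0.28) followed. Psmd7 had 1594 and 841 for its bright probe set and 247 and 315 for its dimmer one, a mean of −0.29 (SD 0.88). Psmd13 was the exception of the lid at 0.30 (SD 0.50), with 1157 and 1210 for its brightest probe set and the 3 others at −0.24, 0.45 and 0.91. Of the 8 lid genes 7 lay below 0, with a median of −0.60.

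Assembly chaperones went in both directions. All 4 chaperone genes of the core particle lay below 0, with a median of −0.59. Psmg1, which pairs with Psmg2 to build the alpha ring, had 3650 in control cells against 1631 with DKK1, a difference of −1.15 from 1 probe set, and was called lower. Psmg3 had −0.76 and Psmg2 −0.41 (SD 0.03, 2 probe sets), while Psmg4 had 2116 and 1792, a difference of −0.24. The calls of Psmg1 and of Psmd5 ended only when the hybridisation controls were set equal, among the 12 other settings. Each rests on 1 probe set, so leaving out the filter, the stricter filter and the choice of probe sets could not end these calls. Psmd5, a chaperone of the ATPase ring, had 2021 and 973, a difference of −1.04 from 1 probe set, and was called lower. The other chaperones of that ring did not share this, with Psmd10 at 0.26 (1337 and 1606) and Psmd9 at 0.30. Psmd9 had 737 and 671 for its brighter probe set and 66.1 and 120 for its dimmer one. Over all 7 assembly genes the median was −0.41, with 5 below 0 and 2 called lower.

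Set side by side, the core particle had a median of −0.35 over 14 genes, the regulatory particle −0.66 over 17 and the assembly chaperones −0.41 over 7. Relative to the median of all genes, these were −0.45, −0.76 and −0.52 as deposited. Over the 12 other settings the relative medians ran from −0.62 to −0.21, from −0.78 to −0.49 and from −0.52 to −0.32. The relative core median was −0.24 after quantile normalization and −0.21 after loess. All 3 stayed below the median of all genes in each setting, while the core median itself turned to 0.02 when the hybridisation controls were set equal. The ranges overlap, but within each setting the regulatory median was the lowest of the 3, while the core and assembly medians changed places. Without the filter the regulatory and core medians were close, at −0.40 and −0.39. The order of the 3 groups was not tested.

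**Figure D3:**
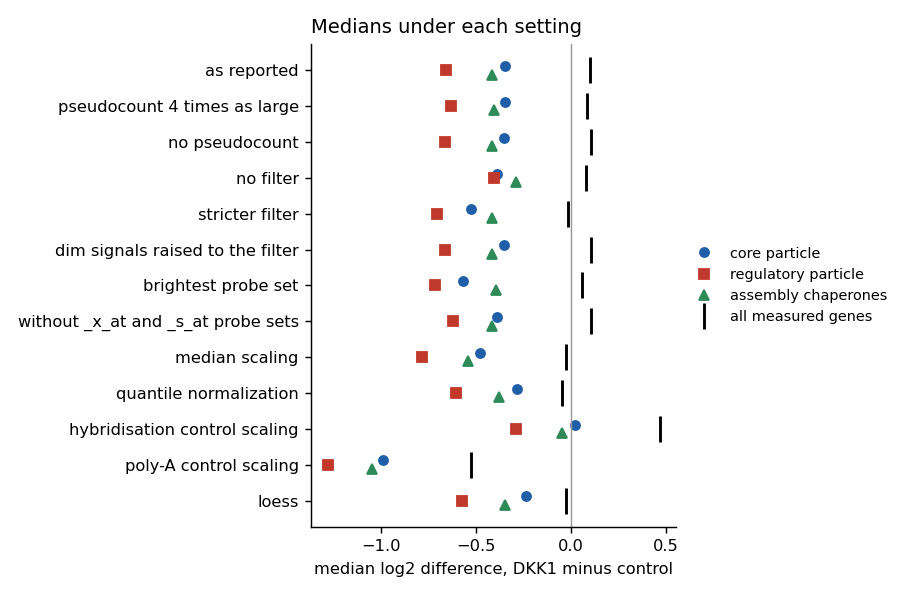
Medians of the log2 difference, DKK1 minus control, of the core particle, the regulatory particle and the assembly chaperones under each processing setting, with the median of all measured genes as a vertical tick. The 3 groups lie below the tick in every row, and the whole row moves with the scaling, to −0.53 for all genes with poly-A controls and 0.47 with hybridisation controls.

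The alternative caps and the inhibitor showed the widest spread. Psme3, which encodes a nuclear cap that acts without ubiquitin, was called lower. Its 2 measured probe sets went from 1463 to 417 and from 326 to 111, a difference of −1.60 (SD 0.24) and a 3.03-fold lower value. Its call ended without the filter, where a dim probe set of the opposite sign entered and the mean was −0.95. Psme1, a subunit of the interferon-induced cap, had 4969 and 5331, a difference of 0.10, the same as the median of all genes. Psme4, a large nuclear cap, had a mean of −0.34 (SD 0.55) over 5 probe sets. Its brightest probe set went from 4388 to 2196 and the next from 2044 to 1138, while the 3 dimmer ones had differences of −0.15, 0.06 and 0.23. Psmf1, which encodes an inhibitor and binding partner of the core particle, was above 0 at all 4 probe sets, with 606, 549, 277 and 254 in control against 1240, 928, 636 and 292 in DKK1 cells. Its mean of 0.77 (SD 0.43) was not called, and it passed 2-fold by its brightest probe set (1.01) and when the hybridisation controls were set equal (1.14). Psmf1 and Psmb10 were the members that stayed above 0 when the poly-A controls were set equal, at 0.15 and 0.33.

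Brightness of the probe sets moved with these results, both for the members and for the arrays as a whole. Of the members' 78 measured probe sets 58 lay below 0. Among those with a mean signal of 1000 or more, 50 of 54 lay below 0 with a median of −0.68, where the median of all 6126 such probe sets was −0.08 and 54.6% were below 0. Among the dimmer ones, 8 of 24 lay below 0 with a median of 0.28, where the median of all 13234 was 0.17 and 40.4% were below 0. Over 5000, the median was −0.58 for 27 member probe sets and −0.21 for all 1392. Of these, 26 of the members' and 61.1% of all lay below 0. Of the 21 members with several measured probe sets 13 had all of them on 1 side of 0, and in 7 of the other 8 the brightest probe set was below 0. Taken by the brightest probe set of each gene, 38 of 43 members lay below 0 with a median of −0.65. What the dim probe sets of these genes detect was not tested.

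**Figure D4:**
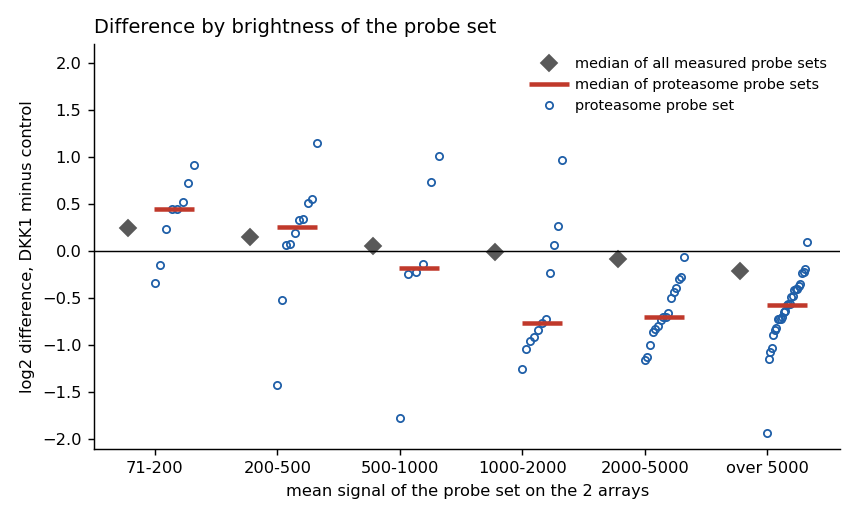
Circles are the measured probe sets of proteasome genes, placed in 6 classes of mean signal, with their median as a red line and the median of all measured probe sets as a grey diamond. The y axis is the log2 difference, DKK1 minus control. The median of all probe sets goes from 0.24 in the dimmest class to −0.21 over 5000, and that of the proteasome probe sets from 0.45 to −0.58.

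**Figure D5:**
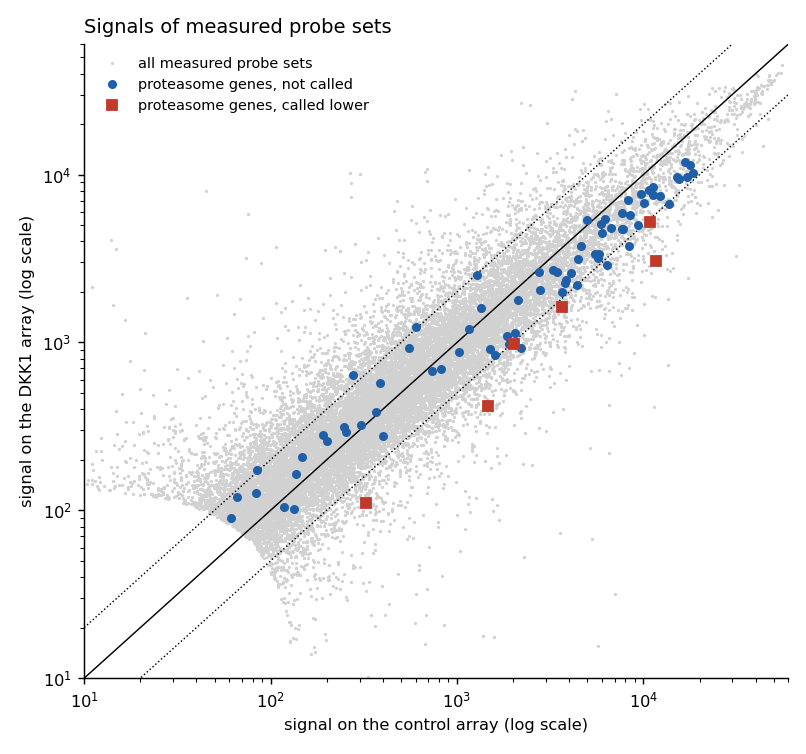
Signals of the measured probe sets on the control array (x) and the DKK1 array (y), both on log scales, with proteasome genes over all 19360 measured probe sets with 1 symbol. The solid line marks equal signals and the dotted lines 2-fold; 56 probe sets with a signal under 10 lie outside the axes. Of the 54 proteasome probe sets with a mean signal of 1000 or more, 50 lie below the solid line, and those of the 5 called genes lie beyond or near the lower dotted line.

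Genes that work with the proteasome outside this naming scheme gave a smaller difference by their median. Of 10 measured partners 7 lay below 0, with a median of −0.27, and 1 was called. Uchl5, a deubiquitinase of the regulatory particle, was called lower at −1.05 (SD 0.64), with probe sets going from 2245 to 784 and from 89.4 to 53.6. Its call ended under 3 of the other settings, where the difference was as small as −0.72. Pomp, the factor that matures the core particle, had 6915 and 7254, a difference of 0.07. Sem1, a small lid subunit, had −0.26. Besides Uchl5, Akirin2 at −0.64 and Zfand2a at −0.61 lay below the median of the proteasome members, −0.41. The highest partner was Zfand5 at 0.64.

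Among genes that control proteasome expression, 4 of 6 measured lay below 0, with a median of −0.22. Nfe2l1 had 4576 in control cells against 3066 with DKK1, a difference of −0.58 from 1 probe set. Nfe2l2 was called lower at −1.02 (SD 0.02), with probe sets going from 9457 to 4682 and from 286 to 131. Its call ended with the larger pseudocount and when the hybridisation controls were set equal. Ngly1, an enzyme needed to activate NFE2L1, had 0.62. Differences of the 5 members with the antioxidant element core in the window were −1.93 for Psmb5, −0.90 for Psmb6 and −0.66 for Psmc6. Psmd12 had −0.28, and Psmd9 had 0.30 as a mean and −0.13 by its brightest probe set. Whether the element had a part in these differences was not tested.

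Of 8 measured genes of ubiquitin supply and delivery 7 lay below 0, with a median of −0.20 and 0 called. Rad23b, which shuttles ubiquitylated proteins to the proteasome, was the lowest at −0.95 (SD 0.54 between 3 probe sets). The segregase gene Vcp had −0.24. Each of these 3 lists lay between the proteasome members and the typical gene by its median, and these differences were not tested.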

How the data were processed

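The authors deposited 1 linear intensity value per probe set, made with MAS5 per the submitters' processing notes, which name no version or settings. Symbols came from the platform annotation. All 45 members matched RefSeq (GRCm38.p6) by gene ID, with 0 symbols changed. The sources used here name no build for the array, and coordinates belong to the promoter table alone. The pseudocount of 16.6 is the 25th percentile of all signals. It moves dim differences towards 0. Probe sets named _x_at or _s_at can match several transcripts. The SD given is between probe sets of a gene, 0.44 pooled over members, and not between cultures.

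Every member was accounted for, and values are printed for called genes, the highest and lowest of each group, catalytic subunits, caps and members whose probe sets disagree. Members, lists and settings were chosen with earlier results of these data known. Signal classes and loess were added after these data were seen. Alternatives changed the pseudocount (none or 4 times), the filter (none, 427, or dim signals raised to it), the probe sets used or the scaling. The call rule was tested on simulated data in which 4-fold increases were the only changes. Decreases and changes near 2-fold were not simulated. Python 3.11.15, pandas 2.3.3 and statsmodels 0.14.6 were used.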

Additional observations from a re-analysis of the deposited data

How the results depend on the processing

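Directions of the called members held under the 12 other settings, and the scaling decided how many were called. Members called lower, of 43, were 8 after median scaling, 2 with hybridisation control scaling and 25 with poly-A control scaling. The shares of all measured genes called lower there were 8.92%, 3.48% and 24.3%. In the other settings between 4 and 6 members were called lower, where 5.55% to 8.86% of all genes were. Members called higher were 0 as reported, 1 by the brightest probe set (Psmf1), 1 after loess (Psmb10) and 3 with hybridisation control scaling (Psmb10, Psmd9 and Psmf1). The shares of all measured genes called higher were, in the same order, 11.7%, 11.98%, 8.95% and 22.005%. With poly-A control scaling the medians were −0.99 for the core particle, −1.28 for the regulatory particle, −1.05 for the assembly chaperones and −1.05 for all members. With hybridisation control scaling the same 4 medians were 0.02, −0.29, −0.04 and −0.04. In all settings but poly-A control scaling each of these 4 medians moved by less than the pooled SD between probe sets of 0.44. That SD is between probe sets of a gene and does not measure the spread of a median over genes. Without the filter Psmb11, dim on both arrays, was called lower in place of Psme3. No paired analysis was possible because each group has 1 array. The 2 arrays limit the precision, and Psmb5, Psmd14, Psmd5 and Psmg1 rest on 1 probe set each. For these 4, leaving out the filter, the stricter filter and the choice of probe sets left the values unchanged. A batch and the group cannot be told apart here.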
